A study of Mus musculus with 2 samples.

Results

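The genes of glycolysis, lactate handling and the pentose phosphate route were followed in CD8 T cells of the mouse, grown with Tc1 cytokines, which drive these cells toward a type 1 effector state. The set is a list of 37 genes named from pathway knowledge, and all 37 were found by gene symbol in the authors' annotated table, which names 21877 genes. Each of the 37 genes had 1 probe set, so no choice between probe sets was needed. Total RNA of the untreated culture was measured on 1 array, and that of a culture in the same Tc1 condition with cholesterol added on 1 other array, and the comparison asks how expression differs when cholesterol is present. The strain, age, tissue of origin, purification, cholesterol dose, vehicle and duration are not stated in the labels or files used here. With 1 array per group there is no replicate error and no test, so every difference below describes this pair of arrays, and their number limits the precision.

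Glycolysis splits glucose into pyruvate in the cytosol, and pyruvate is either reduced to lactate and exported or oxidised to acetyl-CoA by the pyruvate dehydrogenase complex in mitochondria. The pentose phosphate route branches off at glucose 6-phosphate and supplies NADPH and ribose 5-phosphate. Activated and effector T cells are known for a high rate of glycolysis with lactate release even in oxygen, a program that MYC, HIF-1 and mTOR signalling raise, while resting and memory T cells lean more on mitochondrial oxidation.

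None of the 37 genes differed by 1.5-fold or more between the arrays. A brightness filter asked that the brighter array reach the median gene-level signal of 47.4. Of the 11327 genes past it, 5.94% differed by that much. With cholesterol, 2.72% of the 11327 were lower and 3.22% were higher by that much. A signal was called above background when it exceeded the 95th percentile of the negative control probe sets, which was 130.3 on the untreated and 121.8 on the cholesterol array. By that rule 31 of the 37 genes were above background on both arrays and the other 6 on neither, whereas 32.5% of all genes were above it on both. With the 99th percentile in its place, at signals of 917 and 855, 13 of the 37 genes were above it on both. Among the 7112 genes above background on both arrays, 2.53% differed by 1.5-fold or more. With shares that low, any list of this size would hold few such genes, so their absence does not set the carbohydrate genes apart. The largest of the 31 differences were those of Hk2, at a log2 difference (cholesterol minus untreated) of -0.44, Pdk1 at 0.38, G6pdx at -0.37 and Slc16a3 at -0.30.

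These 4 genes are the ones above background that reached 1.2-fold, a threshold chosen after the values were seen. At that threshold 3 of the 31 genes were lower and 1 was higher, while 6.64% of all genes above background were lower and 16.9% were higher. The promoter windows of the 4 genes are shown because the set is set below against the short motifs bound by HIF-1 and MYC. Each window holds 250 bases before and 50 after the start in RefSeq on GRCm38.p6, read 5′ to 3′ on the gene's strand. Capitals mark the hypoxia response core, ACGTG or GCGTG on either strand, and for Pdk1, which has a pair of annotated starts, the upstream window is given.
Hk2, chr6:82774405-82774704, minus strand: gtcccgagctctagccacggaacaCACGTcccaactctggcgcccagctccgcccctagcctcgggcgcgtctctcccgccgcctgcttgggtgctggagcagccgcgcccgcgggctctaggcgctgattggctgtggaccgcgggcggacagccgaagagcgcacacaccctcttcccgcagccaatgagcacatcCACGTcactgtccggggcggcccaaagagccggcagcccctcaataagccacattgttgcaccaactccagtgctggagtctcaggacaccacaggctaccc
Slc16a3, chr11:120948817-120949116, plus strand: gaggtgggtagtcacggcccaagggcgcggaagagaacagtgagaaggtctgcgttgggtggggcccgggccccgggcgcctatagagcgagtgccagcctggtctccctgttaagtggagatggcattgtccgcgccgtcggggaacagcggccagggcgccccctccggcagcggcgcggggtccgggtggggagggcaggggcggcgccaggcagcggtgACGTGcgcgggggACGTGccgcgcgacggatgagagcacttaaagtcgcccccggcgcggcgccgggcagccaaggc
G6pdx, chrX:74428831-74429130, minus strand: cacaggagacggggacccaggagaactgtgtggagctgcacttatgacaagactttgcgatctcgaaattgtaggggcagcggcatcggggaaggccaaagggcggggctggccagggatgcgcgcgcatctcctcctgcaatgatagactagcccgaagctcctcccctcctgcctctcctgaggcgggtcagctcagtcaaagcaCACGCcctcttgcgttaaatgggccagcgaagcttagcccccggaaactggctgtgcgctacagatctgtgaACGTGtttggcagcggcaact
Pdk1, chr2:71872974-71873273, plus strand: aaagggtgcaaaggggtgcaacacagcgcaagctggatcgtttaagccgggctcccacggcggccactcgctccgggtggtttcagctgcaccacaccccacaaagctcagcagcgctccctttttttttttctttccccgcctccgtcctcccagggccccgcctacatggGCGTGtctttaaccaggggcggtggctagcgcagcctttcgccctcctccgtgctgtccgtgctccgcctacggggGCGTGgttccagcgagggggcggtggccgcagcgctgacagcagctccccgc

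The capitals occur at 2 places in each of the 4 windows. Hk2 and Slc16a3 carry ACGTG at both places, G6pdx carries ACGTG once and GCGTG once, and Pdk1 carries only GCGTG. The downstream Pdk1 window, not shown, holds no match. A match describes these letters and is no evidence of a bound site.

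Glucose enters T cells through GLUT1 and GLUT3, and both transporter genes were above background. Slc2a1, which encodes GLUT1, the transporter that activated T cells raise, went from a signal of 1569.7 on the untreated array to 1373 on the cholesterol array, a log2 difference of -0.19. Slc2a3, which encodes the high-affinity transporter GLUT3, had signals of 592 and 611. Its difference of 0.046 fell to -0.0017 after quantile normalization and -0.022 after a lowess fit on signal, so it has no settled direction.

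**Figure D1:**
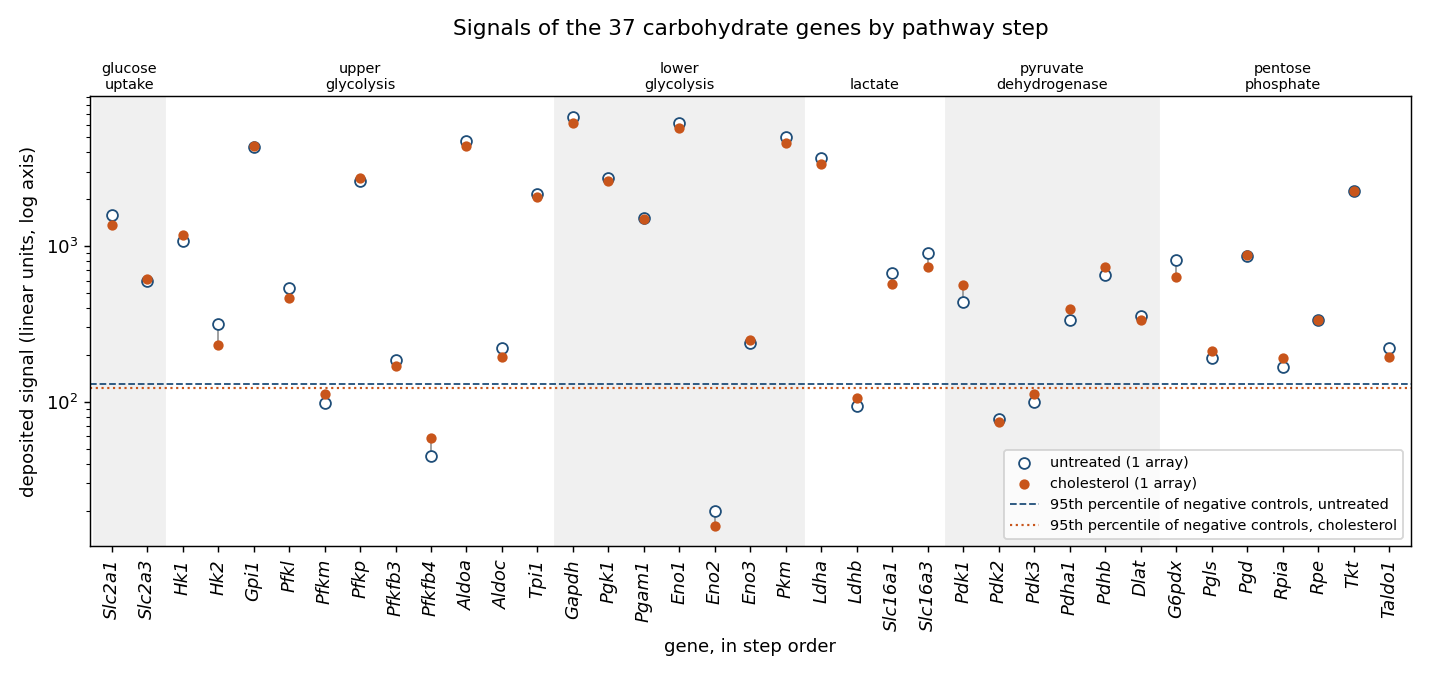
Deposited signals of the 37 genes on a log axis, in pathway order, with 1 open point for the untreated and 1 filled point for the cholesterol array. The 6 genes Pfkm, Pfkfb4, Eno2, Ldhb, Pdk2 and Pdk3 lie below the lines that mark the 95th percentile of the negative controls, 130.3 and 121.8, and the points of most other genes nearly coincide.

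Hexokinase traps glucose in the cell as glucose 6-phosphate, and its isoforms differed in opposite directions. Hk2, the inducible isoform that accompanies T cell activation, read 313 on the untreated and 231 on the cholesterol array, a 1.36-fold lower level. Hk1, the constitutive isoform, had signals of 1081 and 1183, a log2 difference of 0.13. The Hk2 difference minus the Hk1 difference was -0.57 on the log2 scale as deposited, a value that centring cannot change because it shifts both genes equally. It was -0.59 after quantile normalization and after lowess. The isoforms thus differed unequally on this pair of arrays, with no replicate to give the error of that contrast. Gpi1, the isomerase that passes glucose 6-phosphate on to fructose 6-phosphate, had signals of 4326 and 4365, and its difference of 0.013 changed sign under quantile normalization (-0.048) and lowess (-0.029).

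Phosphofructokinase commits the sugar to glycolysis, and the liver and platelet subunits were above background while the muscle subunit was not. Pfkl, the liver subunit, had signals of 539 and 464, a difference of -0.22. Pfkp, the platelet subunit, had signals of 2596 and 2733, a difference of 0.074, and it kept this sign under every scaling. Pfkm did not exceed background on either array, at 97.7 and 111.9, so no fold is given for it. The bifunctional enzymes that set fructose 2,6-bisphosphate, the main activator of phosphofructokinase, were represented by Pfkfb3 (185.5 and 169.5, difference -0.13). Pfkfb4 did not exceed background, at 45.1 and 58.5.

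Aldolase and triose phosphate isomerase close the upper part of the route, and their genes were all slightly lower. Aldoa, the main aldolase outside liver and brain, had signals of 4687 and 4382, a difference of -0.097. Aldoc, better known from brain, had signals of 222 and 195, a difference of -0.19. Tpi1, which interconverts the triose phosphates, had signals of 2151 and 2066, a difference of -0.058. Of the 9 genes above background from hexokinase to Tpi1, 6 were lower and 3 higher, against 37.2% of all genes above background that were lower. Their median of -0.097 was -0.053 after centring.

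From glyceraldehyde 3-phosphate to lactate, the main isoform at each step was lower by a small amount, although that of Pgam1 changed sign with centring. Gapdh, the dehydrogenase that yields NADH and is also known to bind Ifng messenger RNA in T cells, went from 6732 to 6179, a difference of -0.12. Pgk1, the first step that makes ATP, had signals of 2744 and 2630.2, a difference of -0.061. Pgam1, the mutase that follows, had signals of 1501 and 1485, and its difference of -0.015 became 0.029 when each array was centred on its median.

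Enolase makes phosphoenolpyruvate and pyruvate kinase then makes pyruvate. Eno1, the ubiquitous enolase, had signals of 6146 and 5687, a difference of -0.11. Eno3, the enolase of muscle, had signals of 237 and 249, a difference of 0.075 that shrank to 0.00081 after quantile normalization. Eno2, the neuronal enolase, did not exceed background, at 19.84 and 15.97. Pkm, which encodes both splice forms of pyruvate kinase M, had signals of 5037 and 4581, a difference of -0.14, and the array's single probe set does not separate the forms.

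Lactate dehydrogenase A, encoded by Ldha, regenerates NAD by reducing pyruvate, and it had signals of 3645 and 3346, a difference of -0.12. Of the 7 genes above background from Gapdh to Ldha, 6 were lower and Eno3 was higher, and the 6 differences ran from -0.14 to -0.015. In the top 1 of 5 equal bands of signal among genes past the filter, which holds 6 of these 7, 35.6% of genes were lower, the median difference was 0.055 and the central 95% ran from -0.34 to 0.45. Each of these 6 genes therefore lay inside the spread of that band, which holds mean signals from 563 to 11197. Several of these genes have near-identical processed pseudogenes in the mouse, and cross-hybridization was not tested.

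**Figure D2:**
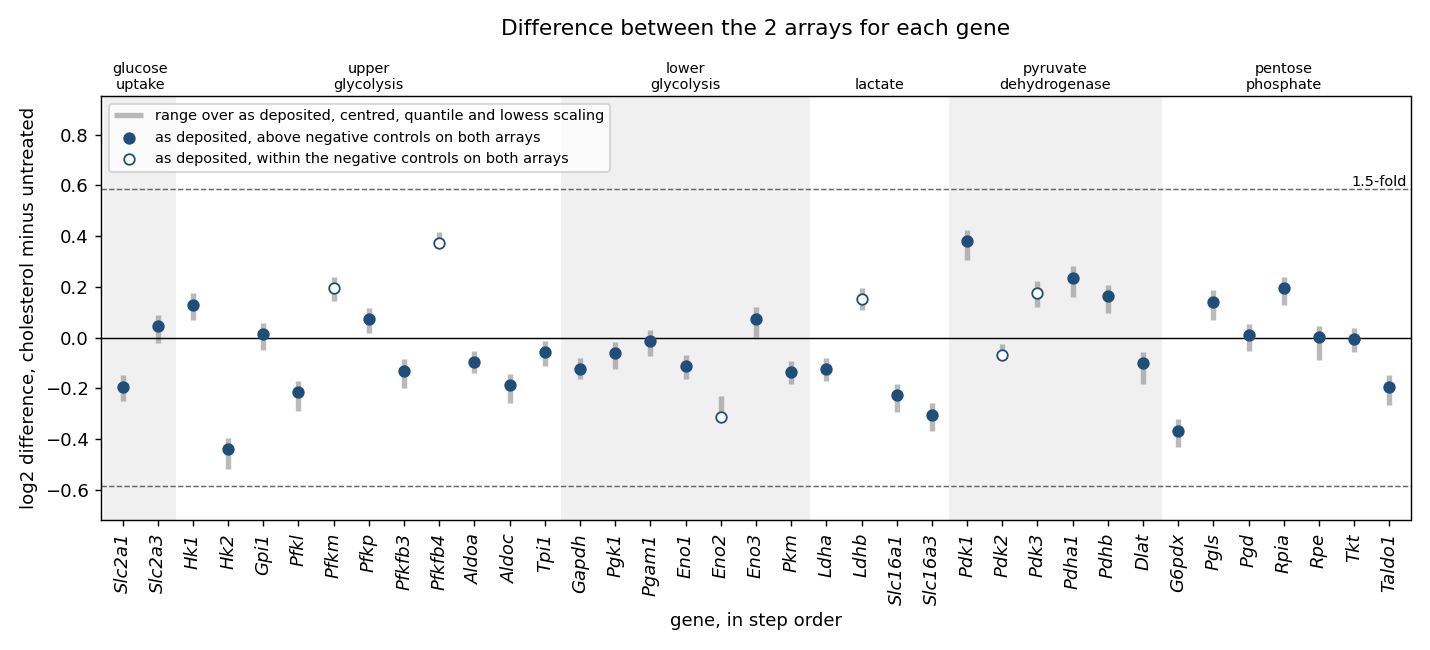
Log2 difference, cholesterol minus untreated, for each of the 37 genes in pathway order, with filled points above background on both arrays and open points not above it. Grey bars span the values as deposited and under 3 other scalings, and dashed lines mark 1.5-fold, which no gene reaches; Hk2 (-0.44), G6pdx (-0.37) and Pdk1 (0.38) stand farthest from 0 among the filled points.

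All 3 lactate genes above background were lower, against 37.2% of all genes above background as deposited. Each of the 3 lay inside the central 95% of genes in its band of signal. Slc16a3, which encodes the lactate exporter MCT4, went from 902 to 731, a 1.23-fold lower level. Slc16a1, which encodes MCT1, a transporter that carries lactate in both directions, had signals of 667 and 570.2, a difference of -0.23. With Ldha, which like Slc16a1 did not reach 1.2-fold, their median was -0.23 and ran from -0.29 to -0.18 over the scalings. Ldhb, the subunit that favours lactate oxidation, did not exceed background, at 94.6 and 105.1. Bsg, the chaperone that carries MCT1 and MCT4 to the cell surface and no member of the set, had signals of 3802 and 3827, a difference of 0.0095.

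Of the 4 genes above background at the entry of pyruvate into mitochondria, 3 were higher, against 61.9% of all genes above background as deposited. Pdk1, a kinase that switches pyruvate dehydrogenase off and is a known HIF-1 target, went from 435 to 566, a 1.30-fold higher level. Pdk2 (77.8 and 74.2) and Pdk3 (99.8 and 112.9), kinases of the same family, did not exceed background. Pdk1 was thus the only one of the 3 listed kinase genes above background.

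The enzyme that the kinases act on gave mixed values. Pdha1, the E1 alpha subunit that is phosphorylated, had signals of 336 and 396, a difference of 0.24. Pdhb, the E1 beta subunit, had signals of 653 and 731, a difference of 0.16. Dlat, the E2 acetyltransferase of the same complex, had signals of 357 and 334, a difference of -0.099. Pdk1, Pdha1, Pdhb and Dlat kept their signs under every scaling, and their median of 0.20 was 0.13 after quantile normalization and after lowess.

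In the pentose phosphate route, the first enzyme had the largest difference of the 7 genes. G6pdx, glucose-6-phosphate dehydrogenase, which makes NADPH and sets the entry into the route, went from 817 to 633, a 1.29-fold lower level. It was the 1 gene of the 36 past the brightness filter outside the central 95% of its band of signal, here -0.34 to 0.45. By construction 5.03% of all genes past the filter lie outside theirs. The G6pdx difference of -0.37 was close to that limit. Its band spans mean signals of 563 to 11197, and in the next band down, 277 to 563, the lower limit was -0.38. The next enzymes of the oxidative branch, Pgls, the lactonase (191 and 211, difference 0.14), and Pgd, the second NADPH-making dehydrogenase (868 and 873, difference 0.0082), did not share its direction as deposited. For Pgd the sign changed under quantile normalization (-0.037) and lowess (-0.054).

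The non-oxidative branch, which interconverts sugar phosphates and makes ribose 5-phosphate, held genes that differed in either direction and genes that were close to level. Rpia, the ribose isomerase, had signals of 168 and 192, a difference of 0.20. Taldo1, transaldolase, had signals of 222 and 194, a difference of -0.19. Tkt, transketolase, had signals of 2264 and 2252 (difference -0.0073), and Rpe, the ribulose epimerase, had signals of 336.7 and 337.0 (difference 0.0012). Rpia and Taldo1 kept their signs under every scaling, while those of Tkt and Rpe depended on it. The median of the 7 pentose phosphate genes was 0.0012, but -0.054 after quantile normalization, so the branch has no settled direction.

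Over the 31 genes above background, 19 were lower and 12 higher with cholesterol as deposited, and the median difference was -0.061, which became -0.017 after centring, -0.12 after quantile normalization and -0.11 after lowess. Over all 7112 genes above background, 37.2% were lower and 61.9% higher as deposited, with a median of 0.059. That median was 0.10 after centring but -0.0047 after quantile normalization and -0.0071 after lowess, so the excess of higher genes over all genes holds for the deposited and centred values and not for the other scalings. Of the 31 genes, 17 were lower and 8 higher under all of the deposited, centred, quantile and lowess scalings, and the direction of the other 6 (Slc2a3, Gpi1, Pgam1, Pgd, Rpe and Tkt) depended on the scaling. The sizes were like those of other genes, with a median absolute log2 difference of 0.13 in the set and 0.14 over all genes above background. Including the 6 dim genes, 21 of 37 were lower and 16 higher, with a median of -0.058, which became -0.015 when each array was centred on its median.

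**Figure D3:**
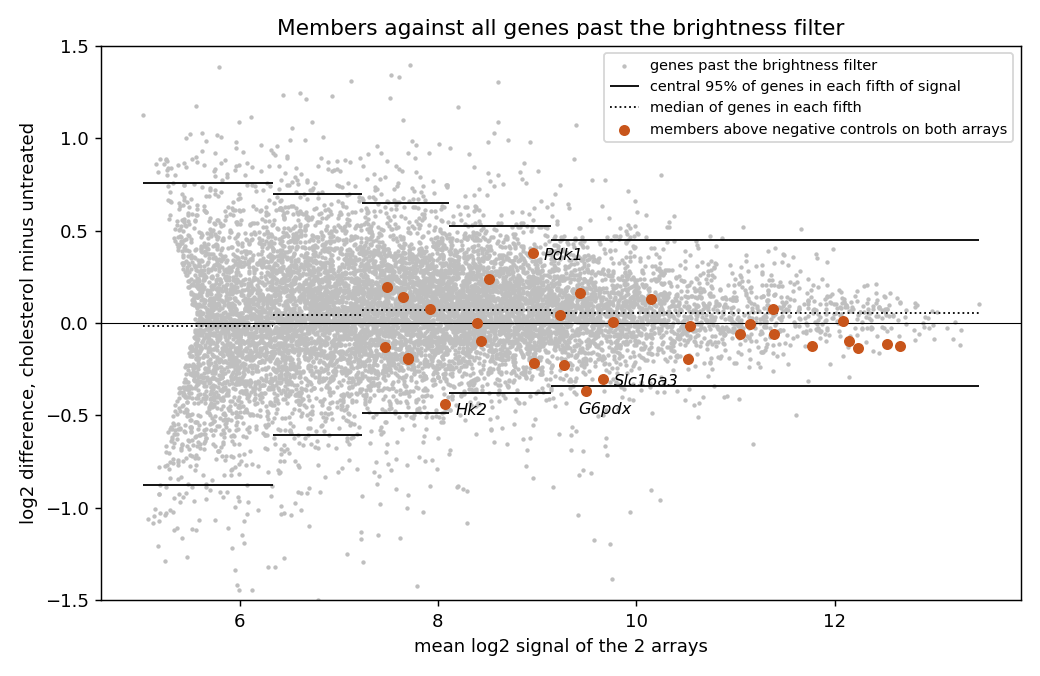
Log2 difference, cholesterol minus untreated, against the mean log2 signal of the 2 arrays for the genes past the brightness filter (grey; 11 genes lie beyond the plotted range) and for the 31 carbohydrate genes above background (orange). Solid lines give the central 95% and dotted lines the median of genes in each of 5 bands of signal; G6pdx is the 1 orange point outside the solid lines.

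On the same pair of arrays, CD8 T cell markers and the few markers of other cells above background on both arrays differed as well. All 5 CD8 T cell markers (Cd3d, Cd3e, Cd3g, Cd8a and Cd8b1) were above background and higher with cholesterol, and their summed signal was 14461 without and 16905 with it. Cd4 was above background at 605 and 393, and the other CD4 markers, Foxp3 and Cd40lg, were within the negative control range. The summed signal of the 4 B cell markers was 564 and 327, and only Cd79b was above background on both arrays. The summed signal of 7 macrophage and dendritic cell markers was 1525 and 729.9. Only Cd74 was above background, and its signals of 1288 and 562 made up most of those sums. The defining markers Csf1r, Adgre1 and Itgax were within the negative control range. None of the 2 NK cell, 4 granulocyte and 2 erythroid markers was above background. In bulk RNA, fewer cells of a type and less RNA per cell cannot be told apart, and the part of these cells in the differences above was not tested.

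Related genes outside the set gave no common direction either. Among regulators, Myc had signals of 4624 and 4281 (difference -0.11) and Hif1a, the subunit that makes HIF-1 oxygen sensitive, 2420.2 and 2561 (0.082). Txnip, a glucose-induced inhibitor of glucose uptake, was at 0.37, from 1944 to 2505. Irf4, a transcription factor that sustains glycolysis in activated CD8 T cells, was at -0.30, from 679 to 551. Prkaa1, the AMPK catalytic subunit, was at 0.24 and Rptor, the scaffold of mTOR complex 1, at 0.17. Of the 16 regulators above background, 5 were lower and 11 higher, against 61.9% of all genes above background that were higher, and 0 differed by 1.5-fold. Their median of 0.077 was 0.012 after quantile normalization and after lowess.

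Hypoxia genes outside glycolysis fell on both sides. Egln3, a prolyl hydroxylase that marks HIF for degradation, was at -0.37 (605 and 467), and Bnip3, a mitophagy receptor, was at -0.36 (638 and 496). Ndrg1 was at 0.34 (256 and 323), and Mxi1, a MYC antagonist, was at 0.33 (292 and 367). Of the 12 above background, 4 were lower and 8 higher, against 61.9% of all genes above background that were higher. Their median of 0.036 was -0.028 after quantile normalization. Within the carbohydrate set, the HIF-1 target Pdk1 was at 0.38. Of the genes above background that reached 1.2-fold, Pdk1 was the 1 higher gene. The 3 others, Hk2 (-0.44), G6pdx (-0.37) and Slc16a3 (-0.30), were lower. These are single genes of the 31 above background, of which 19 were lower and 12 higher. A part of HIF-1 in these differences was not tested.

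Of the other isoforms and partners, 10 of 33 were above background, 4 of them lower and 6 higher, against 61.9% higher over all genes above background. G6pc3, the ubiquitous glucose-6-phosphatase, was at 0.43 (376 and 506), which is 1.34-fold higher. Its sign was opposite to that of Hk2 and the same as that of Hk1, at 0.13. Adpgk, the ADP-dependent glucokinase, was at -0.22, H6pd, the endoplasmic reticulum counterpart of G6pdx, at -0.16, and the pyruvate dehydrogenase phosphatase Pdp1 at -0.15. Pklr and Ldhc, isoforms of liver and red cells and of testis, differed by over 1.5-fold (-0.77 and -0.70) but neither exceeded background on either array.

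The TCA cycle, which takes up the acetyl-CoA made by pyruvate dehydrogenase, had 16 of 18 genes above background, 8 lower and 8 higher. Over all genes above background, 37.2% were lower and 61.9% higher as deposited. Fh1, fumarase, was at -0.27 (296 and 245), Sdhc, a membrane subunit of succinate dehydrogenase, at 0.35 and Suclg2, a subunit of succinyl-CoA ligase, at 0.27. Of 17 genes above background in the routes that leave glycolysis, 11 were lower and 6 higher, against the same 37.2% lower over all genes. Their median of -0.11 ran from -0.19 to -0.063 over the scalings. Gpd2, the mitochondrial enzyme of the glycerol phosphate shuttle, was at -0.42 (429 and 320.0). Prps1, which makes phosphoribosyl pyrophosphate from ribose 5-phosphate, was at 0.33, Ogt, which attaches N-acetylglucosamine to proteins, at 0.27 and Ugp2, which makes UDP-glucose, at 0.24. Gbe1, of the routes that leave glycolysis, differed by over 1.5-fold (0.63, 47.7 and 73.6) but did not exceed background on either array. Across these 5 lists, no gene above background reached 1.5-fold, against 2.53% of all genes above background.

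**Figure D4:**
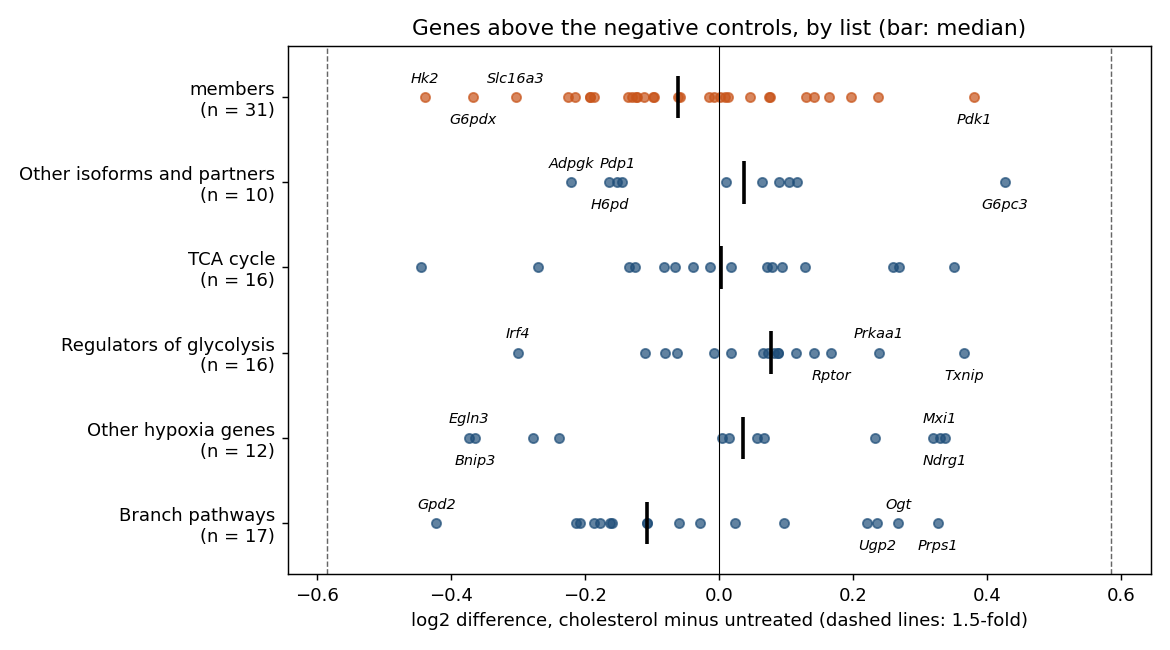
Log2 difference, cholesterol minus untreated, for genes above background on both arrays in the carbohydrate set (orange, 31 genes) and 5 related lists (blue), with the median of each as a black bar and dashed lines at 1.5-fold. Every list spans 0, and the named points include Gpd2 at -0.42 and G6pc3 at 0.43.

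RefSeq promoter windows were matched by symbol for 36 of the 37 genes. The hypoxia core, ACGTG or GCGTG on either strand, was present in 1 window or more of 31 of the 36, or 86.1%, against 46.7% of 27025 genes with a window and 69.9% of the 5380 genes above background that matched. A gene with several windows has more chances of a match. Counted by window, the core was in 76.5% of the 51 windows of the set and 43.8% of all 32851 windows. The core contains CG, and windows of genes above background held a median of 22 CG pairs and those of the carbohydrate genes 20, against 7 for all genes. The form ACGTG alone was in 18 of the 36 genes, against 30.7% of genes above background and 21.8% of all genes. By window its shares were 41.2% in the set and 19.6% over all windows. The MYC E-box CACGTG, which contains ACGTG, was in 5 of the 36 genes, or 13.9%, and in 647 of the 5380 genes above background. No match says only that these letters are not in the window.

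With the motifs chosen by knowledge of HIF-1 and MYC and the split read after the values, the 15 genes above background whose windows hold ACGTG included 13 that were lower and 2 that were higher (Hk1 and Pdhb), with a median of -0.13. These are values as deposited. Of the 15 without it, 6 were lower and 9 higher, with a median of 0.0082. Of those 9, Gpi1, Pgd and Rpe became lower after quantile normalization (-0.048, -0.037 and -0.088) and after lowess. Pgam1, with ACGTG, and Tkt, without it, became higher after centring. The direction of the group without ACGTG thus depends on the scaling. Over all genes above background the same split gave 39.4% lower among 1650 genes with ACGTG and 36.7% among 3730 without. With GCGTG counted too, 17 of 26 were lower with the core and 2 of 4 without, against 38.0% and 36.4% of all genes above background. The E-box holders above background were Pfkfb3, Ldha and Slc16a1, with differences of -0.13, -0.12 and -0.23, and 41.7% of all E-box holders above background were lower. These counts are descriptions of a set chosen with its values known.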

How the data were processed

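RNA was extracted with Trizol and labelled with biotin by a sense-target method for whole transcripts, per the labels' protocols. The authors deposited signal intensities on a linear scale for 28846 probe sets, with a ratio of cholesterol to untreated signal for 22206 of them, which matched the signals of the same table in every case within 1e-09. No label or header names the array software, background correction or normalization. The value table of the series was identical (largest difference 0).

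From the 22206 gene-level probe sets, 31 with no usable single symbol were left out, and the brightest probe set by mean log2 signal stood for each of 21877 genes. Differences are log2 of the cholesterol minus log2 of the untreated signal. Background was the 95th percentile of 5222 negative controls on each array. Alternatives were centring each array on its median, quantile normalization, a lowess fit with a span of 0.3, an offset of 16 and other filters, run in Python 3.11.15 with pandas 2.3.3, NumPy 2.4.6 and statsmodels 0.14.6. The counting step was tested on simulated data. Every gene of the set is named, and of each related list the 4 genes above background with the largest absolute difference and any past 1.5-fold, of which 1 is not reported here. Any other related gene was picked for naming with its values in view. The members and lists were chosen with earlier results of these data known.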

Additional observations from a re-analysis of the deposited data

Results flagged for a closer look

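The 1324 positive control probe sets, which enter no comparison above, were brighter with cholesterol by a median of 0.067 on the log2 scale, and their median signal was 259 on the untreated and 273 on the cholesterol array. They are listed here because they are a signal outside the gene-level measurement that was higher on the cholesterol than on the untreated array. Their difference has the opposite sign to the median of -0.061 over the 31 carbohydrate genes above background and is close to the 0.059 over all genes above background as deposited.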

How the results depend on the processing

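No gene of the set reached 1.5-fold under the deposited, centred, quantile, lowess or offset scaling, and none reached 2-fold as deposited. At 1.2-fold, a threshold added after seeing the data, 4 of the 37 genes were lower and 2 higher, Eno2 and Pfkfb4, which did not exceed background, among them. The median of the 37 differences was -0.058 as deposited, -0.015 with both arrays centred, -0.088 after quantile normalization and -0.077 after lowess. The number of lower genes was 21 as deposited, 19 after centring and 25 after quantile normalization and after lowess. With the 99th percentile of the negative controls as background, which was a signal of 917 on the untreated and 855 on the cholesterol array, 13 genes in place of 31 were above it, so the count of expressed genes depends on that choice. With the median of gene-level signals, 35 were. Only the centred median shifted by over 0.032 among these scalings, which is 1 standard error taken over the 37 genes. That yardstick counts the genes as independent and does not measure error between arrays or cultures. No paired analysis was possible because each group has 1 array, and for the same reason no replicate could be left out.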
